A study of Mus musculus with 6 samples.

Results

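The 9 genes described here belong to the negative feedback on the ERK pathway and were followed across islet cell types of mice lacking 14-3-3ζ in β cells. They were Dusp4, Dusp6, Dusp5, Dusp1, Spry2, Spry4, Spred1, Spred2 and Etv5, found by symbol among the 32285 genes of the deposited matrices, and all 9 were present. The set was chosen by a measured value, the Dusp4 level in KO and WT β cells of these data. Dusp4 differences that use the β-cell sums, between KO and WT or against other cell types, are therefore given as a description with no test. Single-cell RNA-Seq libraries (10x Genomics 3′ chemistry) were made from islets of C57/BL6 mice aged 12 to 14 weeks, 3 libraries per genotype. In KO mice the Ins1-CreThor allele, a Cre inserted at the Ins1 locus and active in β cells, deleted the floxed exon 4 of Ywhaz (the 14-3-3ζ gene), and the WT littermates carried Cre too, so both genotypes hold that allele. Other islet cells of KO mice do not carry the deletion by design. The labels give replicate numbers but do not say whether a library is 1 mouse or a pool, so p-values measure the spread between libraries, which may be technical in part.

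Growth factor receptors activate RAS, RAF, MEK and then the kinases ERK1 and ERK2, which enter the nucleus and switch on early genes. Several of those genes code for brakes on the same pathway. DUSP proteins are phosphatases that remove the activating phosphates from ERK (DUSP4, DUSP5 and DUSP1 in the nucleus, DUSP6 in the cytoplasm), Sprouty and SPRED proteins act upstream on RAS and RAF, and ETV5 is an ETS family transcription factor induced by the pathway. Because transcripts of these genes rise and fall with ERK output, they are often read as a measure of it. In β cells, ERK is known to respond to glucose, incretins and growth factors.

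The files held 4400 to 10722 barcodes and 74083947 to 98294915 UMIs (unique transcript tags) per library. Barcodes were kept with at least 500 genes and at most 10% mitochondrial UMIs after removal of likely doublets, and cell types were set by hormone and marker shares in which no member took part: 13993 β cells (Ins1 and Ins2 at 25% of UMIs or more), 1005 α cells (Gcg at 5% or more), 779 δ cells (Sst at 3% or more) and 1233 endothelial cells (10 endothelial markers summing to 0.5% or more). The gated cells carried their labels' markers, with a median of 36.7% insulin UMIs in β cells, 17.9% Gcg in α cells, 9.10% Sst in δ cells and 1.51% endothelial markers in endothelial cells. The β gate has no sharp edge, since 3936 kept barcodes lay between 20% and 30% insulin. Depth stood apart between libraries: the median UMI count of a β cell ranged from 2411.5 in KO replicate 3 to 44762 in WT replicate 1, and WT replicate 2 (2437.5) and KO replicate 3 held many shallow insulin barcodes. Libraries shared 1 to 15 kept barcodes with each other, at most 0.37% of a library. Levels are CPM, a gene's UMIs scaled to a fixed total of the UMIs summed over a cell type in a library, put on a single scale for all 24 sums with TMM factors, which correct for the share taken by hormone transcripts.

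Ywhaz was checked first. In β cells it stood at 186, 203 and 198 CPM in the WT libraries and at 27.3, 40.1 and 28.6 CPM in the KO libraries, and the groups did not overlap. KO was lower by -2.60 on the log2 scale (SE 0.17), which was called (adjusted p = 0.0121 in edgeR's quasi-likelihood test), although that call is lost when any of 5 of the 6 libraries is left out. The 3′ tags lie outside the deleted exon, so they record the amount of transcript and not the deletion itself. In α, δ and endothelial cells Ywhaz differed by -0.19, -0.19 and -0.17 on the log2 scale and was not called. KO was lower in 3 of 3 same-numbered pairs in each of these types, as for 12.9%, 13.7% and 11.7% of genes. In δ cells the genotypes did not overlap, at 157, 170 and 183 CPM in WT and 154, 153 and 141 CPM in KO, as for 8.81% of genes. Of 14295 genes tested in β cells, 1 was called (0.007%), which was Ywhaz.

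Dusp4, a nuclear phosphatase of ERK encoded on chromosome 8 (34807297 to 34819894, plus strand, GRCm38), was lower in each KO β-cell library than in the WT library of the same number. It stood at 30.1, 7.28 and 13.4 CPM in WT replicates 1, 2 and 3, from 677, 209 and 383 UMIs. In the KO replicates it stood at 9.66, 4.46 and 5.80 CPM, from 298, 111 and 197 UMIs. The libraries of the 2 genotypes overlapped, because KO replicate 1 lay above WT replicate 2. The group means were 16.9 ± 11.8 CPM in WT and 6.64 ± 2.70 CPM in KO (SD, n = 3), a fitted log2 fold change of -1.33 (SE 0.51). Same-numbered libraries differed by -1.54, -0.60 and -1.09 in log2(CPM + 1), and 17.2% of the genes tested in β cells were lower in KO in all 3 pairs. The size depended on WT replicate 1. Without it the log2 fold change was -0.63 (SE 0.39), and without any other single library it lay between -1.70 and -1.13. Restricting the sums to β cells with at least 5000 UMIs gave -1.37, and removing KO cells with a Ywhaz UMI gave -1.35. With a block for the replicate number the log2 fold change was -1.21 (SE 0.18), also given with no test.

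**Figure D1:**
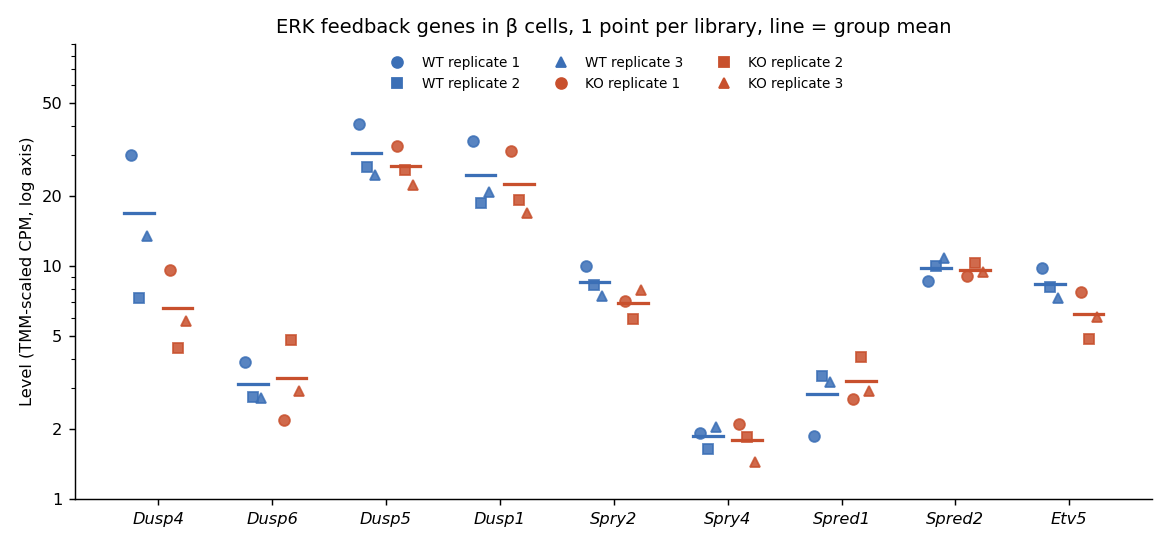
Level of the 9 ERK feedback genes in β cells of each library (TMM-scaled CPM on a log axis), WT in blue and KO in red, with circles, squares and triangles for replicates 1, 2 and 3 and lines for group means. Dusp4 shows the widest spread between libraries, from 4.46 to 30.1 CPM, with WT replicate 1 highest, while Spred2 stays between 8.67 and 10.9 CPM.

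A level summed over cells does not show in how many cells the transcript was found. Therefore β cells of at least 20000 UMIs were also thinned to that number, which left 693 to 945 cells per library. They held few Dusp4 UMIs, from 48 in 743 cells of KO replicate 2 to 262 in 693 cells of WT replicate 1. At such counts the share with a UMI falls with fewer cells holding the transcript and with less transcript per cell alike. It cannot tell these apart. Shallower cells were left out, 54, 3896 and 973 in WT replicates 1, 2 and 3 and 796, 1425 and 2053 in the KO replicates. The shares thus cover 693 of 747 β cells in WT replicate 1 but 724 of 4620 in WT replicate 2. The share of thinned β cells with a Dusp4 UMI was 19.6% (95% exact binomial interval 16.7 to 22.8), 8.43% (6.51 to 10.7) and 11.6% (9.47 to 14.1) in WT replicates 1, 2 and 3. It was 9.21% (7.44 to 11.2), 5.25% (3.76 to 7.11) and 9.24% (7.44 to 11.3) in the KO replicates. Each KO share was below that of the same-numbered WT library, which is given as a description like the levels. Intervals cover counting error only. Without thinning, the shares ran from 3.05% in WT replicate 2 to 30.5% in WT replicate 1. Thinned to 5000 UMIs so that cell types could be set side by side, 1.38% to 6.91% of β cells held a Dusp4 UMI, against 0.68% to 3.57% of α and δ cells and 5.47% to 11.2% of endothelial cells. At 20000 UMIs, 1% of the β cells held 23.1% to 35.8% of the Dusp4 UMIs of a library and a single cell reached 21 UMIs. The same share was 8.0% to 13.7% for Dusp5, but 21.1% to 39.3% for Dusp6, 27.5% to 52.0% for Spred1 and 38.1% to 55.0% for Spry4, which had fewer UMIs.

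The levels of 3 stress-response genes, chosen after their values were seen, are given beside those of Dusp4. Hspa5, the chaperone BiP, was at 2338, 1198 and 1438 CPM in WT β cells and at 1216, 812 and 1099 CPM in KO β cells. Herpud1, part of the machinery that degrades misfolded proteins, was at 433, 200 and 247 CPM in WT and at 247, 160 and 213 CPM in KO. Ppp1r15a, which restores translation after stress, was at 122, 44.6 and 59.3 CPM in WT and at 79.7, 40.5 and 49.7 CPM in KO. For all 3 genes WT replicate 1 was highest and KO replicate 2 lowest, as for Dusp4 and for 13.1% of the 14295 genes tested in β cells. Their part in the Dusp4 difference was not tested. Endothelial markers, whose cells express Dusp4, summed to 16.0 to 26.5 CPM in WT and 13.1 to 37.9 CPM in KO β-cell sums with none of the 10 at 0. In CPM without TMM factors, as used for these marker sums, Dusp4 in β cells was 18.2% to 80.9% of its endothelial level in the same library. With TMM factors, Dusp4 in WT replicate 1 stood at 30.1 CPM in β cells and 19.7 CPM in endothelial cells. Immune markers, also without TMM factors, summed to 42.2 to 105 CPM in WT and 33.4 to 596 CPM in KO β-cell sums, and their part was not tested.

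**Figure D2:**
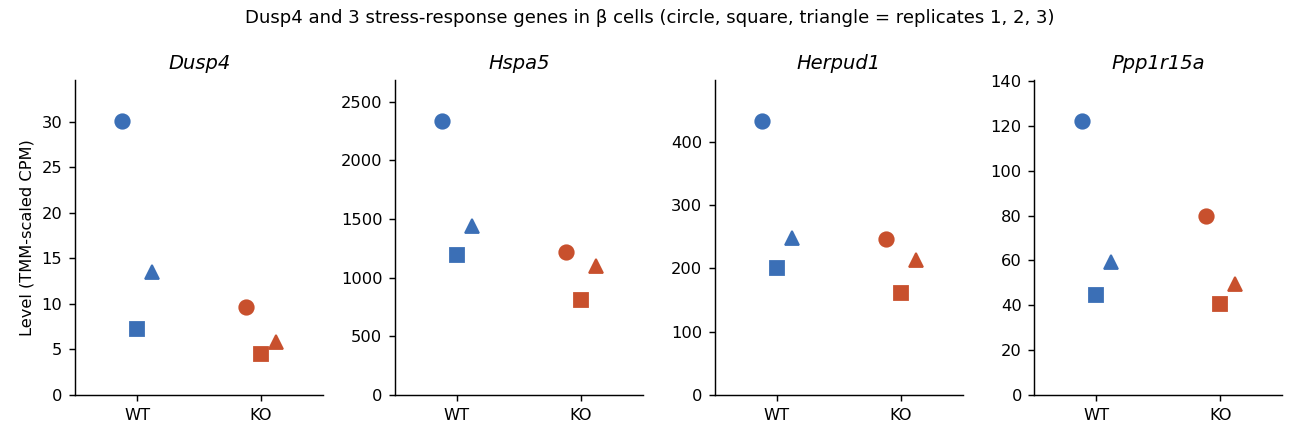
Level in β cells (TMM-scaled CPM, axes from 0) of Dusp4, Hspa5, Herpud1 and Ppp1r15a in each WT (blue) and KO (red) library. In all 4 panels WT replicate 1 (circle) is the highest point and KO replicate 2 (square) the lowest.

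None of the other 8 members was called between KO and WT β cells (edgeR quasi-likelihood test, 0 of 8, against 0.007% of all genes tested), and the libraries of the genotypes overlapped for each of them, where 9.26% of all genes did not overlap. Of the 14295 genes, 445 (3.11%) had an unadjusted p under 0.05, and DESeq2 called 5 genes, none of them a member. Etv5 was the nearest to a difference, at 9.82, 8.15 and 7.26 CPM in WT and 7.75, 4.86 and 6.06 CPM in KO. Its log2 fold change was -0.42 (SE 0.19, edgeR adjusted p = 0.972), with the KO library lower in 3 of 3 pairs. Among alternatives it ranged from -0.63 to -0.29 and its adjusted p did not go below 0.563. Dusp5, a nuclear phosphatase specific for ERK, was lower in KO in 3 of 3 pairs as well, by -0.31, -0.03 and -0.14 in log2(CPM + 1), with a fitted log2 fold change of -0.17 (SE 0.22). These 2 of 8 members stand beside 17.2% of all genes. Without WT replicate 1 the Dusp5 value turned to 0.09.

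The remaining phosphatases and adaptors gave small values. Dusp1, an early-response phosphatase that acts on p38 and JNK as well as ERK, had means of 24.7 ± 8.67 CPM in WT and 22.4 ± 7.59 CPM in KO (SD, n = 3), a log2 fold change of -0.12 that turned to 0.20 without WT replicate 1, and was high in replicate 1 of both genotypes (34.6 and 31.1 CPM, with all other libraries at or below 20.7 CPM). Dusp6, the cytoplasmic ERK phosphatase, stood between 2.17 and 4.82 CPM in the 6 libraries from 67 to 120 UMIs, with a log2 fold change of 0.11 (SE 0.33) that turned to -0.28 without KO replicate 2 and -0.31 with an insulin gate of 35%. Its highest and lowest values both came from KO. Spry2 had a log2 fold change of -0.29 (SE 0.15), with means of 8.59 ± 1.29 and 6.95 ± 0.996 CPM. Spry4 (-0.04, SE 0.22), Spred1 (0.21, SE 0.29) and Spred2 (-0.02, SE 0.12) lay within 1 SE of 0. The median log2 fold change over the 9 members was -0.12, beside 0.005 over all genes. It includes the Dusp4 value that chose the set, so it is a description and no test of the members. In simulated β-cell counts with 1 dispersion common to all genes (biological coefficient of variation 0.204), the same fit called 59% of genes changed by 1 on the log2 scale and 99% of those changed by 2. Those counts held many planted changes and no effect shared by the genes of a library. The 2 shares therefore cannot be carried over to the members.

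**Figure D3:**
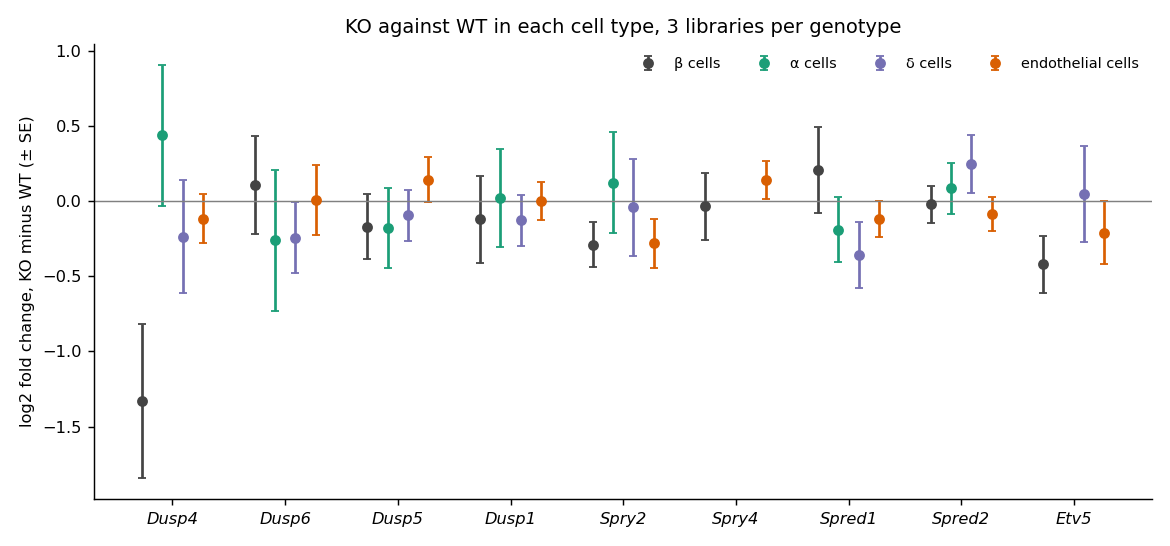
Fitted log2 fold change of KO minus WT with its standard error for each ERK feedback gene in β, α, δ and endothelial cells (3 libraries per genotype). Dusp4 in β cells (-1.33) is the lowest point, and no value is drawn for Spry4 in α and δ cells or Etv5 in α cells, which had too few UMIs to be tested.

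In cell types that keep Ywhaz, no member was called between genotypes: 0 of 7 tested in α cells, 0 of 8 in δ cells and 0 of 9 in endothelial cells, with 0 of all genes (0%) called in each type by edgeR and 345 (3.06%), 384 (3.43%) and 371 (3.59%) genes at an unadjusted p under 0.05. The genotypes overlapped for each member in each type, where 8.54%, 8.81% and 9.63% of all genes did not overlap. DESeq2 called 3 genes in endothelial cells. Spry4 did not pass the filter on low counts in α and δ cells, nor did Etv5 in α cells. Dusp4 in endothelial cells was at 19.7, 18.1 and 17.3 CPM in WT and at 16.6, 16.5 and 18.7 CPM in KO. The log2 fold change was -0.12 (SE 0.16, edgeR adjusted p = 0.976). In δ cells Dusp4 had means of 4.02 ± 1.05 and 3.51 ± 1.20 CPM (SD, n = 3), with KO lower in 3 of 3 pairs (13.7% of genes), by -0.02, -0.01 and -0.47 in log2(CPM + 1). Dusp6 and Dusp1 in δ cells and Spry2 and Spred1 in endothelial cells (11.7% of genes) were likewise lower in KO in 3 of 3 pairs, and Dusp5 and Spry4 in endothelial cells (18.5%) and Etv5 in α cells (13.5%) higher. In α cells Dusp4 rested on 2 to 21 UMIs per library, with means of 2.44 CPM in WT and 3.44 CPM in KO.

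Whether the genotype difference of a member changed between cell types was tested as an interaction of genotype and type (limma-voom over the 24 sums with library as a random block, consensus correlation 0.121). For the 8 members other than Dusp4 no term was called against β cells in α, δ or endothelial cells, beside 1 of 13030 genes (0.00767%) for each type. For Dusp4, given with no test, the KO minus WT difference was 1.61 (SE 1.41) higher in α cells, 0.92 (SE 1.32) higher in δ cells and 1.04 (SE 0.67) higher in endothelial cells than in β cells. The largest term among the others was Etv5 in α against β cells, 1.39 (SE 0.75, limma-voom adjusted p = 1.00). The α libraries rested on 0 to 18 Etv5 UMIs.

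The members differed between cell types. All 9 were higher in endothelial cells than in β cells, Dusp4 as a description only. Each of the others was called (edgeR with library as block), where 80.1% of 15191 genes were called, 37% higher and 43.1% lower. The median log2 difference of the 9 was 3.25, beside -0.13 over all genes. Spry4, an inhibitor of receptor tyrosine kinase signalling, ranged from 119 to 165 CPM in endothelial cells (median 128) and from 1.44 to 2.11 CPM in β cells (median 1.88), a log2 difference of 6.18 (SE 0.09, edgeR adjusted p = 6.47e-11). Dusp6 ranged from 136 to 305 CPM (median 226) and from 2.17 to 4.82 CPM (median 2.83), a log2 difference of 6.11 (SE 0.26). Spred1, which brings neurofibromin to RAS, ranged from 118 to 154 CPM (median 137) and from 1.87 to 4.06 CPM (median 3.05), a difference of 5.52 (SE 0.15). No endothelial library overlapped a β-cell library for these 3 genes.

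Dusp1 (4.08, SE 0.11), Spred2 (3.25, SE 0.09) and Spry2 (2.12, SE 0.10) followed on the log2 scale, each higher in endothelial cells in 6 of 6 libraries. Dusp5 (0.62, SE 0.10) and Etv5 (0.65, SE 0.15) differed least, and so did Dusp4. Dusp4 had medians of 17.7 CPM in endothelial cells and 8.47 CPM in β cells, and was higher in endothelial cells in 5 of 6 libraries, WT replicate 1 being the exception. Its log2 difference was 0.87 (SE 0.29), with 0.72 without KO replicate 3 and 0.79 without WT replicate 2. This is a description with no test, since the β-cell levels of Dusp4 chose the set. Over the alternatives run the log2 difference of Dusp4 ranged from 0.59 to 1.19. In CPM without TMM factors, Dusp6, Spry4 and Spred1 in β-cell sums were at 0.47% to 2.39%, 0.71% to 1.03% and 0.73% to 2.33% of their endothelial level in the same library. On that scale the 10 endothelial markers of the gate summed to 0.073% to 0.285% of their endothelial level in β-cell sums, with 0.40% to 0.98% for the highest single marker. Within a library, Spred1 stood above the highest marker in 6 of 6, Spry4 in 5 of 6 and Dusp6 in 4 of 6. The part of endothelial RNA in them was not tested.

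**Figure D4:**
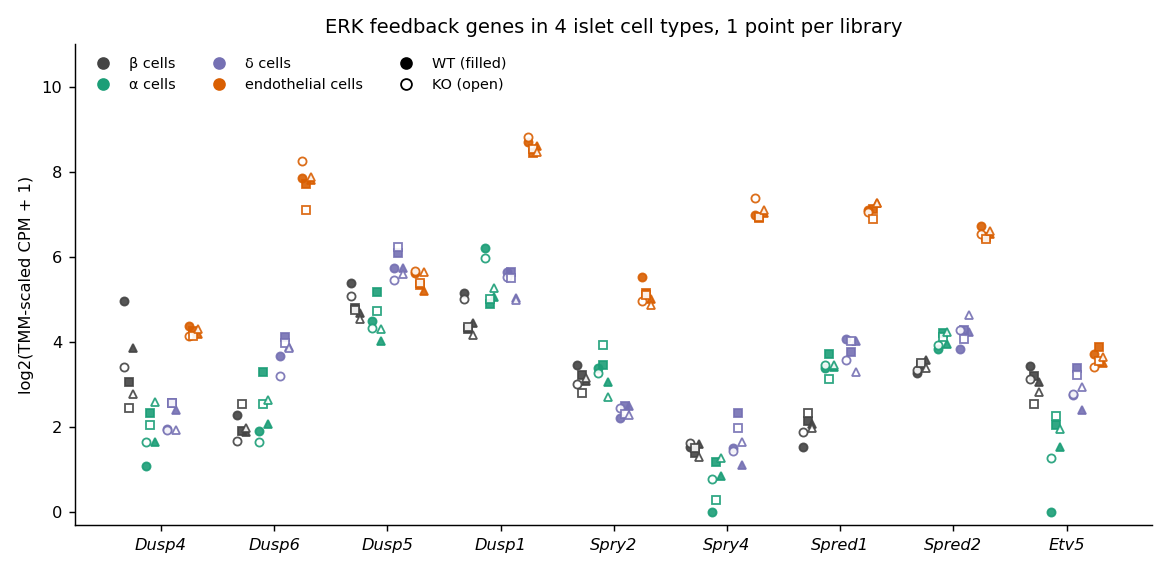
Level of each ERK feedback gene, as log2(TMM-scaled CPM + 1), in β, α, δ and endothelial cells, with 1 point per library (WT filled, KO open; circle, square and triangle for replicates 1, 2 and 3). Endothelial cells lie above β cells in every library for 8 genes, and for Dusp4 β cells lie above α cells in 6 of 6 libraries.

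Of the 3 endocrine types gated, β cells had the highest Dusp4. It was lower in α cells (log2 difference -1.59, SE 0.35) and in δ cells (-1.67, SE 0.30) than in β cells. The β-cell levels of Dusp4 chose the set, so both differences are given as a description with no test. The α libraries ranged from 1.10 to 5.01 CPM (median 2.66) and the δ libraries from 2.81 to 4.92 CPM (median 3.58). In α cells it was lower in 6 of 6 libraries and in δ cells in 5 of 6. The KO library of replicate 2, where β cells had the lowest Dusp4 of all, was the exception in δ cells. In WT, β cells averaged 16.9 CPM, α cells 2.44 CPM and δ cells 4.02 CPM, and in KO they averaged 6.64, 3.44 and 3.51 CPM. The order of the means was endothelial (17.8 ± 1.25 CPM), β (11.8 ± 9.51), δ (3.77 ± 1.05) and α (2.94 ± 1.43) (SD, n = 6), and the α and δ ranges overlapped.

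The other members did not share this order. Of the members other than Dusp4, 3 were called higher in α cells than in β cells, beside 23.2% of 15347 genes. Etv5, Spry4 and Dusp5 were called lower, beside 27.1% (50.3% in all). Dusp4 was lower as a description only. Spred1 (1.66, SE 0.18), Dusp1 (0.84, SE 0.08) and Spred2 (0.65, SE 0.10) were higher, each in 6 of 6 libraries. Etv5 was lower (-1.55, SE 0.31, edgeR adjusted p = 0.000718), with 0 to 3.80 CPM in α cells against 4.86 to 9.82 CPM in β cells. The α cells of WT replicate 1 held 0 UMIs of Etv5 and 0 of Spry4, which allows up to 1.66 CPM. Spry4 (-1.26) and Dusp5 (-0.35, edgeR adjusted p = 0.0475) were called lower in α cells, but the Spry4 call was lost without 4 of the 6 libraries in turn and so was the Dusp5 call, which was also lost under DESeq2 and with hormone genes left out of totals. In δ cells 5 members were called higher and Spry2 lower, beside 24% and 28.4% of 15302 genes (52.3% in all). Dusp4 was lower there as a description only. Spred1 (2.11, SE 0.18), Dusp6 (2.02, SE 0.16), Dusp5 (0.92, SE 0.13), Spred2 (0.86, SE 0.11) and Dusp1 (0.81, SE 0.11) were higher in δ cells in 6 of 6 libraries. Spry2 was lower in δ cells than in β cells (-0.92, SE 0.16) in 6 of 6 libraries. Of the 4 members lower in α cells, Etv5 had an edgeR or DESeq2 adjusted p of at most 0.00529 in all alternatives run. The Dusp4 difference between α and β cells, given with no test, ranged from -1.97 to -1.17 over them.

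Promoter sequences are shown for the 3 DUSP genes with an entry in the RefSeq table (GRCm38.p6) as the phosphatases of the set that could be set beside each other. In all, 7 of the 9 members had an entry (Dusp6, Dusp5, Dusp1, Spry2, Spred1, Spred2 and Etv5). The sequences run 5′ to 3′ on the strand of the gene and stop before the first exon base of the GENCODE annotation on that strand. The Dusp5 and Dusp6 windows end where the annotated gene begins (chromosome 19, 53529109, and chromosome 10, 99263231), and the Dusp1 window lies inside the annotated gene span (chromosome 17, 26505590 to 26562128), outside its exons. Capitals mark matches to 6 motifs searched on both strands: the cAMP response element TGACGTCA and its core TGACG (which the longer motif contains), the AP-1 site TGAGTCA, the ETS site CCGGAAGT, the stress element TGATGNAA and the CArG box bound by serum response factor.
Dusp5, chr19:53528895-53529108, plus strand: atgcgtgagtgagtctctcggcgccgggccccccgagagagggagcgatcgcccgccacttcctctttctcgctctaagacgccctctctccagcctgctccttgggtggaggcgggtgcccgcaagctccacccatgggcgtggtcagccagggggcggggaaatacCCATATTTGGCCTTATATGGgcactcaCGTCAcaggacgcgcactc
Dusp1, chr17:26508520-26508722, minus strand: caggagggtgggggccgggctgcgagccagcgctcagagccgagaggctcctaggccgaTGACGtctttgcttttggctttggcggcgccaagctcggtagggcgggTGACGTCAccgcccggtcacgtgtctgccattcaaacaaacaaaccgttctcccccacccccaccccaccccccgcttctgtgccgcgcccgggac
Dusp6, chr10:99262981-99263230, plus strand: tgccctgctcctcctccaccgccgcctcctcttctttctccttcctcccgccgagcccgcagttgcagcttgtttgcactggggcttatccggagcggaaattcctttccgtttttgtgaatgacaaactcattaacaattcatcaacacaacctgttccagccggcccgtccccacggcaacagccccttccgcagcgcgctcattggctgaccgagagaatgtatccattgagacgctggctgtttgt

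The Dusp5 promoter held 2 adjacent CArG boxes, 82 to 73 and 72 to 63 bases before the RefSeq start, and the core TGACG on the opposite strand. The Dusp1 promoter held 1 full cAMP response element, 143 to 136 bases before the start, and a further TGACG. The Dusp6 window held no match to the 6 motifs, which says only that these letters are not in it. Of 32851 promoter windows of 250 bases, 1.47% held a CArG box, 1.55% the element TGACGTCA, 17.8% TGACG, 4.46% TGAGTCA, 2.88% CCGGAAGT and 3.45% TGATGNAA. A match is a description and not a site shown to be bound. Of the other members with an entry, Spred2 held TGACG on the opposite strand, 51 to 47 bases before the start. Spred1, Spry2 and Etv5 held no match. The part of these motifs in the levels was not tested.

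The pathway around the members was followed with 3 lists. Of 32 core cascade and receptor genes, 29 were tested in β cells and 0 were called between genotypes (median log2 fold change 0.010, all genes 0.005, lowest edgeR adjusted p = 0.972). Igf1r, the receptor for insulin-like growth factor, was at 542 ± 31.7 CPM in WT and 561 ± 89.3 CPM in KO (SD, n = 3). Ptpn11, the phosphatase SHP2 that relays receptor signals to RAS, was at 145 ± 7.83 and 146 ± 2.15 CPM. Braf, a RAF kinase, was at 148 ± 3.48 and 142 ± 17.5 CPM. Igf1r was lower than in β cells in α (-2.57, SE 0.10), δ (-1.99, SE 0.07) and endothelial cells (-3.14, SE 0.13, edgeR adjusted p = 1.48e-08). Against β cells, 21 core genes were called higher and 9 lower in endothelial cells, of 31 tested, where 80.1% of all genes were called. In α cells 8 were higher and 12 lower of 30 (50.3% of all genes called), and in δ cells 7 and 11 of 29 (52.3%).

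Of 22 other brakes on the cascade, 19 were tested in β cells and 0 were called between genotypes (median 0.009). Pebp1, the RAF kinase inhibitor protein, was at means of 390 and 419 CPM in WT and KO, a log2 difference of 0.12 (SE 0.10), and Rasa1, which switches RAS off, at 57.5 ± 1.07 and 55.2 ± 4.82 CPM (SD, n = 3). Dusp3, a small phosphatase of ERK and JNK, was at 46.7 ± 7.05 and 46.2 ± 1.76 CPM, and Cbl, a ubiquitin ligase for activated receptors, at 40.9 ± 2.23 and 43.0 ± 1.52 CPM. Dusp3 was higher in endothelial cells by 2.90 (SE 0.08) on the log2 scale, and Pebp1 was lower there by -1.01 (SE 0.06). In endothelial cells 14 of 20 were called higher and 6 lower than in β cells, beside 37% and 43.1% of all genes. In α cells 8 of 20 were higher and 6 lower (23.2% and 27.1% of all genes), and in δ cells 7 and 6 of 20 (24% and 28.4%).

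Of 35 ERK-responsive transcription factors and targets, 28 were tested in β cells and 0 were called between genotypes (median 0.027), with 2 of them at an unadjusted p under 0.05. Egr1, the early-response zinc finger factor, was at 146, 127 and 136 CPM in WT and at 119, 106 and 93.9 CPM in KO. The genotypes did not overlap, as for 9.26% of genes, and the log2 fold change was -0.35 (SE 0.10, edgeR adjusted p = 0.972). Jund was at 291 ± 29.8 and 273 ± 25.7 CPM (SD, n = 3), Btg2 at 151 ± 12.9 and 161 ± 6.01 CPM, and Ccnd1, cyclin D1, at 128 ± 13.1 and 130 ± 4.67 CPM. Egr1 was higher than in β cells in α (1.63, SE 0.08), δ (2.25, SE 0.09) and endothelial cells (0.69, SE 0.11), where Dusp4 was lower in α and δ cells. In endothelial cells 32 of 34 targets were called higher and 2 lower, beside 37% and 43.1% of all genes. In δ cells 19 of 31 were higher and 5 lower (24% and 28.4% of all genes), and in α cells 16 and 5 of 33 (23.2% and 27.1%).

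Over the 24 sums, the genes whose log2(CPM + 1) was most like that of Dusp4 were Dnajb11 (Pearson r = 0.908), Sdc3 (0.897), Eif1ad (0.890), Got1 (0.890) and Sqstm1 (0.890), out of 9051 genes with a mean of at least 10 CPM. The sums share libraries and cell types, and all 5 genes had their highest mean level in endothelial cells. Dnajb11 is a cochaperone of BiP and Sqstm1 the autophagy receptor p62. Within the 6 β-cell sums alone the r values with Dusp4 ran from -0.737 (Sdc3) to 0.890 (Sqstm1).

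Cells with Dusp4 were compared with other β cells of the same library. Each β cell of at least 5000 UMIs was thinned to that number and split by whether a Dusp4 UMI remained, which left 22 to 50 cells with Dusp4 per library. At that depth the cells with Dusp4 held 0 to 34 UMIs in all of any other member, and none passed the exact sign-flip permutation test over 6 libraries after adjustment over all genes. Of 8916 genes at that depth, 1.28% were higher and 6.93% lower with Dusp4 in 6 of 6 libraries. Spred1, with 0 UMIs in those cells, was the member lower in 6 of 6. At the 0.89 to 4.08 CPM of Spred1 in cells without Dusp4, so few cells can hold 0 UMIs by counting alone. A library at 0 counts as lower, so this gives no direction. The split was repeated at 20000 UMIs, a depth chosen after the data were seen, with 39 to 136 cells with Dusp4 and 557 to 858 without per library. Here Dusp5 was at 35.7, 27.9 and 26.9 CPM in WT cells with Dusp4 and 25.8, 22.3 and 19.1 CPM in those without. In KO it was at 36.8, 24.4 and 29.8 CPM with and 25.5, 19.7 and 18.2 CPM without. It was higher with Dusp4 in 6 of 6 libraries, as were 3.13% of 10989 genes, by 0.45 ± 0.06 in log2(CPM + 1) (SEM, n = 6). Its exact permutation p was the smallest that 6 libraries can give, and was 0.283 adjusted over all genes. At 5000 UMIs, with 34 Dusp5 UMIs in cells with Dusp4, its mean difference was -0.31 ± 0.82.

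The other members were not higher in every library. Dusp6 differed by 0.73 ± 0.25 and Spred2 by 0.30 ± 0.09, each higher in 5 of 6 libraries (exact permutation p = 0.0625, n = 6). Spry4 (0.55 ± 0.29), Spry2 (0.48 ± 0.26) and Spred1 (0.18 ± 0.18) were higher in 5 of 6 and Etv5 (0.41 ± 0.19) in 4 of 6. Dusp1 differed by 0.04 ± 0.14 and was higher in 3 of 6. At 5000 UMIs the values of Dusp1, Spry4 and Spred1 were negative, at -0.32, -0.64 and -1.58, and at 2000 UMIs so were those of Spry2, Spred2 and Etv5. At 5000 UMIs these 3 rested on 16, 1 and 0 UMIs in the cells with Dusp4. With so few UMIs, signs at these 2 depths give no direction. No member passed after adjustment, and none could, since 0.283 was the adjusted value of the smallest exact permutation p that 6 libraries can give. The median difference over all genes was -0.10. Spry4, Spred1 and Dusp6 rested on 22, 24 and 36 UMIs in the cells with Dusp4.

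**Figure D5:**
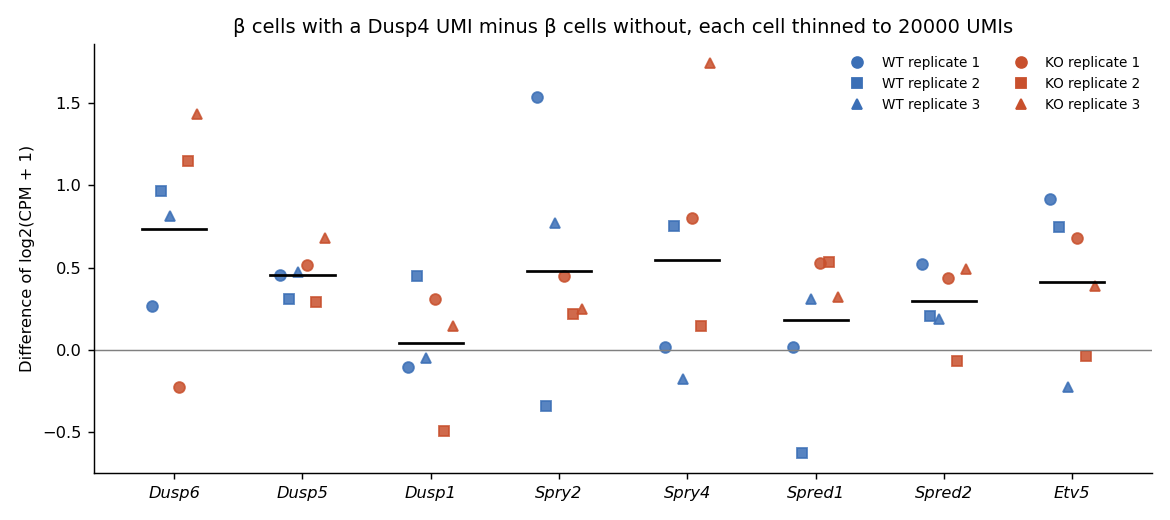
Difference in log2(CPM + 1) between β cells with and without a Dusp4 UMI in each library (each cell thinned to 20000 UMIs), for the 8 other ERK feedback genes, with WT in blue, KO in red and a line for the mean of 6 libraries. Dusp5 lies above 0 in 6 of 6 libraries with a mean of 0.45, whereas Dusp1 scatters around 0.

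The gene lists in the same split were read against that background. Of 26 targets with enough UMIs, 5 were higher with Dusp4 in 6 of 6 libraries (3.13% of all genes were) and 0 were lower. These were Fosl2 (0.86 ± 0.19), Klf4 (0.74 ± 0.23), Etv1 (0.33 ± 0.10), Ets2 (0.30 ± 0.07) and Fosb (0.27 ± 0.12). Of 24 core genes, 3 were lower in 6 of 6 libraries (7.92% of all genes were) and 0 were higher, namely Shc1 (-0.30 ± 0.05), Mapk3, which encodes ERK1 (-0.29 ± 0.08), and Insr (-0.26 ± 0.05). None of 17 other brakes moved one way in 6 of 6 libraries.

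Among 4791 genes with at least 2000 UMIs, some of those with large differences in 6 of 6 libraries are given with no test. They were picked after their values were seen and do not follow the ranking. Tent5a, a noncanonical poly(A) polymerase, came first, with an average of 160.5 CPM in cells with Dusp4 and 69.96 CPM in those without. Hspa5 averaged 1919 CPM in cells with Dusp4 and 905 CPM in those without. Herpud1 averaged 357 and 164 CPM, and Dnajb9, a further chaperone of the endoplasmic reticulum, 349 and 179 CPM. Ppp1r15a averaged 78.6 and 43.3 CPM. Trib1, a pseudokinase that binds MEK, averaged 56.1 and 23.9 CPM, and Cdkn1a, the cell-cycle inhibitor p21, 184 and 89.1 CPM. Taf7, at 45.3 and 22.5 CPM, differed more on the log2 scale than Cdkn1a, Dnajb9 and Ppp1r15a. A difference of 1 direction in 6 of 6 libraries was a condition of this choice. Toward cells without Dusp4, Mapk15 (-0.78), St8sia1 (-0.78) and Tmod1 (-0.76) had the largest differences in log2(CPM + 1). Glp1r, the receptor for the incretin GLP-1, ranked behind these and further genes (-0.63). It averaged 333 CPM in cells with Dusp4 and 511 CPM in those without. Before thinning, the median depth of the cells with Dusp4 was 31018 to 47122.5 UMIs per library and that of the cells without 27989.5 to 46007. Endothelial markers summed to 5.74 to 70.8 CPM (median 10.1) in cells with Dusp4 and 9.66 to 27.5 CPM (median 12.1) in those without, higher in 3 of 6 libraries. Ductal markers (91.95 to 122.0 CPM with, 94.7 to 109.6 CPM without) and dividing-cell markers (0 to 11.5 and 0.43 to 10.3 CPM) were higher with Dusp4 in 5 of 6 libraries. The markers of the other cell types were higher in 2 to 4 of 6. The median mitochondrial share was lower with Dusp4 in 5 of 6 libraries (3.485% to 4.698% with, 4.215% to 4.768% without). The part of these in the differences was not tested.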

How the data were processed

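Per the labels and the study's methods, the authors aligned reads of 6 islet libraries to mm10 with Cell Ranger 6.0.2 and worked in Seurat, and deposited a matrix of UMI counts per gene and barcode for each library, which were used here as deposited. Barcodes were kept with at least 500 genes and at most 10% mitochondrial UMIs, and the barcodes with the highest Scrublet scores (0.8% per 1000 barcodes) were left out. Cell types were gated by hormone and marker shares, and counts were summed per library and type, so that libraries, not cells, were replicates. Sums were tested with edgeR 4.0.16 (quasi-likelihood, TMM, filterByExpr minimum 10, Benjamini-Hochberg over all genes, called at an adjusted p under 0.05 and a log2 change over 0.1), with library as block between types, DESeq2 1.42.0 as an alternative and limma 3.58.1 for the genotype by type term (R 4.3.3, Python 3.11.15). The fit was tested on simulated counts. Cells with and without Dusp4 were compared by exact 2-sided sign-flip permutation over 6 libraries, adjusted over all genes in place of the planned adjustment over 8 members. Same-numbered libraries deviated together in β (r = 0.289 to 0.527), δ (0.129 to 0.237) and endothelial cells (0.101 to 0.388), over the limit of 0.1 set for pairing, but not in α cells (-0.081 in replicate 3). The genes named are the 9 members, Ywhaz, the 4 genes of each list highest in β cells and list genes that moved one way in 6 of 6 libraries. A gene that this rule names in the core list is not reported here. Further genes are said to be chosen after their values were seen. Members and lists were chosen with earlier results of these data known.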

Additional observations from a re-analysis of the deposited data

Results flagged for a closer look

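Among 36 member levels (9 genes in 4 cell types, 6 libraries each), 2 had a library far from the others. Dusp4 in β cells stood at 30.1 CPM in WT replicate 1 against 13.4 CPM in the next library, a gap of 0.649 of the whole range. These values chose the set, so this gap is a description and no independent finding. Spry2 in endothelial cells stood at 44.9 CPM in WT replicate 1 against 34.3 CPM, a gap of 0.641 of the range, and chance gives such a gap in about 1 of 20 groups.

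The KO minus WT difference of Dusp5 had opposite signs in all 3 pairs in endothelial and β cells. The difference between the types was 0.329 on the log2 scale (SE 0.308, limma-voom adjusted p = 1.00), so it was not called. Etv5 likewise was lower in KO in 3 of 3 β-cell pairs and higher in 3 of 3 α-cell pairs, with a difference of 1.39 (SE 0.75, limma-voom adjusted p = 1.00) that rested on 0 to 18 UMIs per α library.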

How the results depend on the processing

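Of 783 values of single genes under the alternatives, 707 stayed the same, 12 kept direction but not side of the threshold, 1 moved and 63 changed sign. None of the 63 was called in either setting. For most values the same meant direction and side of the threshold. For Dusp4 in KO against WT β cells, which has no test, it meant within 1 SE of the main value. The 12 were values of Dusp5 and Spry4 in α against β cells, and of Dusp4 in endothelial against β cells as a description only. In the split by Dusp4 with 1 library left out no member could pass, so those values kept their side by design. The value that moved was Dusp4 in KO against WT β cells, which ranged from -1.70 to -0.63 when 1 library was left out, the latter without WT replicate 1. Counts of all genes called between genotypes were small and moved. In β cells 1 gene was called, against 5 with DESeq2, 2 without TMM, 0 with an insulin gate of 15%, 2 with cells of at least 5000 UMIs and the replicate block (an alternative chosen after seeing the data), and 0 to 1 with 1 library left out. In α cells 0 genes were called, against 29 with no filter on low counts. In δ cells 0 were called, against 42 with no filter, 9 with the replicate block and 0 to 6 with 1 library left out. In endothelial cells 0 were called, against 3 with DESeq2, 19 with no filter, 8 with the replicate block and 0 to 2 with 1 library left out. The cause was not tested. With the replicate block 1 gene was called in β cells and 0 in α cells, no member was called in any type, and Dusp4 in β cells was at -1.21. Depth limits the α and δ sums most, where Dusp4 rested on 2 to 21 UMIs per library.

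Values that changed sign are given on the log2 scale. The first are ranges that crossed 0 with 1 library left out. For KO minus WT in β cells, Dusp5 ran from -0.33 to 0.088, Dusp1 from -0.42 to 0.20, Spred1 from -0.017 to 0.36, Spry4 from -0.16 to 0.10, Spred2 from -0.10 to 0.046 and Dusp6 from -0.28 to 0.34. For KO minus WT in α cells, Dusp6 ran from -0.55 to 0.47, Dusp5 from -0.46 to 0.26, Dusp1 from -0.28 to 0.48 and Spry2 from -0.36 to 0.41. For KO minus WT in δ cells, Etv5 ran from -0.13 to 0.42, Dusp5 from -0.34 to 0.072, Spry2 from -0.17 to 0.024, Dusp6 from -0.39 to 0.021 and Dusp1 from -0.28 to 0.038. For KO minus WT in endothelial cells, Dusp1 ran from -0.11 to 0.067, Spred2 from -0.14 to 0.00056 and Dusp6 from -0.28 to 0.27. For α against β cells, Spry2 ran from -0.036 to 0.37. Between β cells with and without Dusp4, Dusp5 ran from -0.67 to 0.47. Without TMM, Spred2 was 0.0021 for KO minus WT in β cells, Dusp1 was -0.0016 for KO minus WT in α cells and Dusp6 was -0.029 for KO minus WT in endothelial cells. With cells of at least 5000 UMIs, Dusp6 was -0.013 for KO minus WT in β cells and Dusp6 was -0.0021 for KO minus WT in endothelial cells. With KO cells with a Ywhaz UMI left out, Spred2 was 0.039 for KO minus WT in β cells. With insulin gate 15%, Spry4 was 0.16 for KO minus WT in β cells. With insulin gate 35%, Dusp6 was -0.31 for KO minus WT in β cells and Spred2 was 0.039 for KO minus WT in β cells. With cells of at least 5000 UMIs and replicate block, Dusp6 was -0.037 for KO minus WT in β cells. With DESeq2, Dusp1 was -0.031 for KO minus WT in α cells and Dusp1 was 0.00088 for KO minus WT in endothelial cells. With no doublet calls, Spry2 was -0.014 for KO minus WT in α cells, Spred2 was -0.056 for KO minus WT in α cells and Dusp6 was -0.018 for KO minus WT in endothelial cells. With the replicate block, Dusp6 was -0.057 for KO minus WT in endothelial cells. Thinned to 2000 UMIs, Spry2 was -2.13, Spred2 was -2.39 and Etv5 was -1.43 between β cells with and without Dusp4. Signs of this comparison at 2000 and 5000 UMIs rest on few UMIs and give no direction. Thinned to 20000 UMIs, Dusp5 was 0.45, Dusp1 was 0.044, Spry4 was 0.55 and Spred1 was 0.18 between β cells with and without Dusp4. Thinned to 20000 UMIs, insulin left out of totals, Dusp5 was 0.50, Dusp1 was 0.0797, Spry4 was 0.67 and Spred1 was 0.23 between β cells with and without Dusp4. The cause was not tested.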
